A study of Homo sapiens with 12 samples.

Results

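Untreated HT1080 cells, a human fibrosarcoma line of connective tissue origin, were represented by 6 RNA-seq libraries, the controls of 2 experiments, out of 12 libraries in the series. In 1 experiment the treated cells received PMA, a phorbol ester that activates protein kinase C, and in the other ConA, the plant lectin concanavalin A. The controls are called here the PMA controls (replicates 1 to 3) and the ConA controls (replicates 4 to 6), although neither group received its agent, and the treated libraries were not used. All 6 libraries came from wild-type cells handled by the same description. For each, 1000000 cells were seeded in a 10 cm dish in biotin-depleted medium with 10% serum, and after 3 days the medium was exchanged for biotin-depleted medium with 1% serum for 24 h. The labels name no vehicle and do not say whether replicates were separate cultures, so p-values measure only the spread between these libraries. Each experiment had its own table of normalized counts, and the members described here are the 15444 genes listed in both tables, of 16617 listed in either.

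Fibrosarcoma cells deposit and remodel their own matrix. HT1080 cells carry an activated NRAS allele and are widely used to study pericellular proteolysis, in which the membrane-anchored collagenase MMP14 and its soluble inhibitor TIMP2 together bind and activate the gelatinase MMP2. The urokinase system, integrins and growth factor signalling act beside these proteases at the cell surface. Transcripts of these classes were therefore ordered by role.

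The control libraries held an estimated 40269666 to 43173576 reads. The 10 most counted genes took 5.51% to 6.11% of the normalized counts of a library, the top 100 took 20% to 21.9%, and the top 1000 took 52.4% to 53.7%. Before any comparison, the ConA values were divided by 1.13, which brought the median log2 difference over all tested genes to 0, and every value given below for the ConA controls is on that scale. Across genes, Pearson's r between libraries of the same group was 0.994 to 0.996 and between libraries of different groups 0.980 to 0.984; genes are not independent replicates and r is given as a description. The median absolute log2 difference of a gene was 0.071 to 0.124 between libraries of the same group and 0.214 to 0.283 between groups. Some libraries stood apart in a few genes, chosen here after their values were seen. PMA control 3 had 2716 normalized counts of the small nuclear RNA RN7SK against 270.1 and 364.0 in the other PMA controls, and 277.7 of the cardiac myosin MYH6 against 1.84 and 0.894. PMA control 2 had 303.6 of ceruloplasmin (CP) against 5.57 and 10.1, and 439.1 of CD24 against 91.3 and 93.0. Where leaving out PMA control 2 or PMA control 3 changed how many genes of a described list were called, the changed count or call is given in the text.

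The label of a fibrosarcoma was checked against markers of connective tissue and epithelium. Vimentin, fibronectin, N-cadherin (CDH2), SNAI2, ZEB1 and ZEB2 were expressed in every control library, and 15 of 21 mesenchymal genes were listed in both tables. Of the others, FAP and LUM were listed in neither table, PRRX1, THY1 and COL3A1 in the PMA table only, and DCN in the ConA table only. Of 18 epithelial genes 10 were listed in both tables and 4 in the ConA table only. E-cadherin (CDH1) was not listed in the PMA table and had 14.7, 12.4 and 1.77 normalized counts in the ConA controls, and EPCAM, also not listed in the PMA table, had 12.9, 27.4 and 19.4. The simple-epithelium keratins KRT8 and KRT18 were abundant in all 6 libraries, at 14741 to 21496 and 12811 to 14385 normalized counts, so the epithelial list was not empty. Markers of other cell types were mostly at low counts. Summed over their lists, endothelial genes had 193.1 to 247.3 normalized counts, melanocyte genes 115.8 to 201.0, skeletal muscle genes 93.6 to 166.0, kidney genes 64.5 to 210.2 and erythroid genes 4.61 to 13.5 in any control library. B cell genes had 184.8 to 490.5, nearly all of it CD22, and monocyte genes 5309 to 5828, most of it the lysosomal protein CD68.

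T cell and NK cell genes were the exception. All 17 genes of that list were listed in the PMA table, against 4 in the ConA table (CD3D, GZMA, IL7R and LCK). Summed over the list, the PMA controls held 2158 to 2471 normalized counts and the ConA controls 388.1 to 504.0, of which IL7R, which HT1080 libraries of both groups held, made up 346.6 to 462.6. The T cell co-receptor CD8A had 449.9, 366.7 and 347.5 in the PMA controls, perforin (PRF1) 213.9, 182.4 and 227.5, the leukocyte phosphatase CD45 (PTPRC) 187.2, 177.1 and 176.0, and the T cell receptor subunit CD3E 109.7, 125.2 and 115.5. These 4 genes were not listed in the ConA table, and a gene not listed is not counted as 0 here. All 3 PMA controls carried these transcripts at similar levels. The list took 0.00622% ± 0.00040 (SD, n = 3) of the normalized counts of the PMA controls. In bulk RNA, fewer cells of a type and less RNA per cell cannot be told apart, and the part of these transcripts in the differences below was not tested. CDKN2A, a cell cycle inhibitor at a locus that HT1080 cells are known to lack, was also listed in the PMA table only, at 103.3, 130.6 and 99.3 normalized counts, and was chosen after its values were seen. Whether the PMA controls held RNA of other cells was not tested, so the differences below are given as differences between libraries.

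Levels of different genes were compared only per kilobase of transcript. The length used was that of the longest annotated transcript, for example 560 bases for LGALS1 and 4441 for EEF1A1. Levels and ranks depend on that choice. The 20 most abundant genes were housekeeping, translation and cytoskeletal genes together with markers of a mesenchymal cell. Pseudogene, antisense and read-through symbols were left out of this ranking. The ribosomal protein pseudogene RPL13AP5, not ranked, had means of 195796 normalized counts in the PMA controls and 168116 in the ConA controls, not divided by length. Among the genes ranked, LGALS1, which encodes the secreted lectin galectin-1, had the highest mean over the 6 libraries, 143971 normalized counts per kilobase. The glycolytic enzyme GAPDH followed with 128024, the ribosomal proteins RPS2 and RPS18 with 124611 and 113149, and the elongation factor EEF1A1 with 112644. In the PMA controls alone GAPDH was above LGALS1 (means of 136835 and 130093), and in the ConA controls LGALS1 was above GAPDH (157850 and 119214). Between these neighbours the library ranges overlapped, since LGALS1 ran from 116251 to 173096, GAPDH from 112194 to 142952 and RPS2 from 107336 to 137186 per kilobase, so their order is not resolved. Vimentin (VIM), the intermediate filament of mesenchymal cells, ranked 8 with 85093 per kilobase. The actins ACTG1 and ACTB, the actin-binding thymosin TMSB10, the iron-storage protein FTL and the glycolytic enzyme PKM were also among the 20, and the other 12 beside these 8 were genes of the ribosome or of translation elongation. Near-identical pseudogenes can take reads from ribosomal proteins, so their levels carry that uncertainty.

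**Figure D1:**
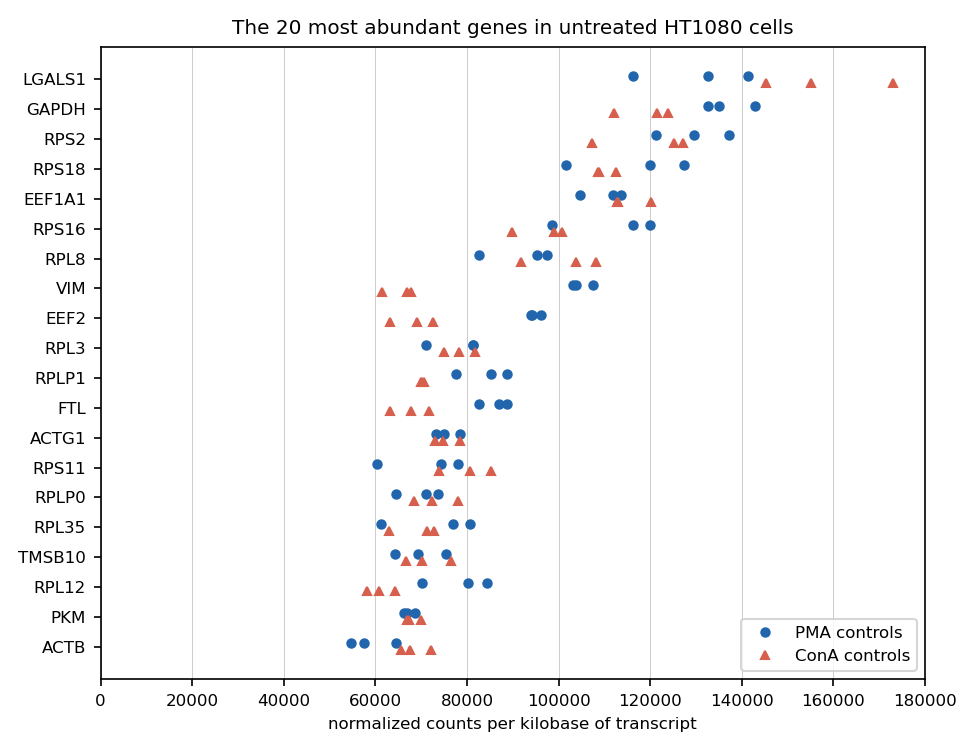
Levels of the 20 most abundant genes in normalized counts per kilobase of transcript (horizontal axis, linear), with a circle for each PMA control and a triangle for each ConA control. LGALS1 lies at the right with all 3 ConA controls above the PMA controls, and VIM shows the widest gap between the groups, from 103100 to 107408 in the PMA controls and from 61427 to 67823 in the ConA controls.

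None of the 20 passed the threshold for a difference between the groups, which was a limma adjusted p of at most 0.0001 together with a difference of at least 2-fold. VIM had 192590, 194024 and 200639 normalized counts in the PMA controls and 114745, 125032 and 126694 in the ConA controls, a log2 difference (ConA controls minus PMA controls, throughout) of -0.68 ± 0.065 SE with an adjusted p of 2.23e-06. The groups did not overlap, but the fold of 1.60 was below the threshold. For EEF2 and FTL, too, each ConA control lay below each PMA control, with log2 differences of -0.48 and -0.35.

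The comparison of the control groups asks how far the untreated libraries of the experiments differed. Of 14984 genes tested, 91 (0.607%) were higher and 185 (1.23%) lower in the ConA controls by at least 2-fold. At a log2 difference of at least 0.5 with the same adjusted p, referred to below as the smaller threshold, 619 genes (4.13%) were higher and 492 (3.28%) lower. The groups did not overlap for 8555 genes (57.1%), so separation alone was the common case. An exact permutation test of 3 against 3 libraries cannot give a p below 0.1, and calls therefore rest on the variance that limma shared over all genes. Of the 2-fold calls, 33.0% were higher in the ConA controls; on the values as deposited, without the shift of 0.18 on the log2 scale, 337 genes were called and 62.0% of them, 209 genes, were higher. Without ConA control 4, 113 genes in place of 185 were lower. The experiment and the control group cannot be told apart in this design, since each experiment has its own controls.

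**Figure D2:**
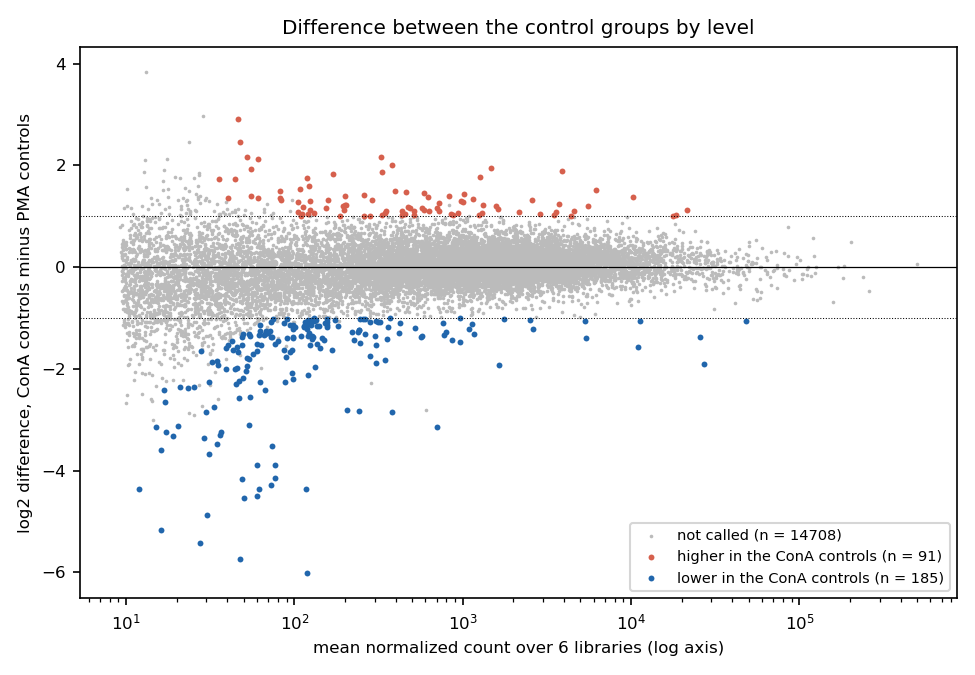
The log2 difference between the control groups (vertical axis, ConA controls minus PMA controls) against the mean normalized count over 6 libraries (log axis), with 1 point per tested gene and dotted lines at 2-fold. The 91 genes called higher stay below 3 on the log2 scale, while the 185 called lower reach -6.02 (LTB), most of these far points lying at mean counts below 200.

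The matrix of the untreated cells was led by fibronectin, SPARC and collagen VI. Fibronectin (FN1), which links collagens to integrins, had a mean level of 22717 per kilobase and the calcium-binding matricellular protein SPARC 23172. COL6A3, the long chain of the beaded-filament collagen VI, had 10294 per kilobase, ahead of COL6A2 (3609), COL4A2 (3415), COL6A1 (3063) and COL4A1 (2127). The basement membrane chains were led by laminin LAMB3 with 7024 per kilobase. Fibrillar collagen I was low by comparison, with 155.9 per kilobase for COL1A1 and 83.9 for COL1A2, and the median of the 29 collagen chains tested was 36.2 per kilobase against 240.3 over all genes tested. Enzymes that fold and crosslink collagen stood higher, with a median of 1953 per kilobase over 19 genes, led by the prolyl hydroxylase subunit P4HB (18697), the transglutaminase TGM2 (13279) and the lysyl oxidase LOXL2 (9147).

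Between the groups, 1 matrix gene was higher and 3 were lower in the ConA controls at 2-fold, while at the smaller threshold more matrix genes were higher than lower: 6 and 2 matrix glycoproteins, 5 and 0 proteoglycans, 3 and 0 genes of collagen processing, and 3 and 2 collagen chains. FN1 had 170977, 165187 and 165879 normalized counts in the PMA controls and 256203, 193824 and 261704 in the ConA controls. Its groups did not overlap, but the log2 difference of 0.49 ± 0.097 SE had an adjusted p of 0.000918 and was not called. SPARC had 63938, 62498 and 63222 against 108380, 109168 and 107355, a log2 difference of 0.78 ± 0.056 SE (adjusted p = 1.86e-07) that passed the smaller threshold. The basement membrane linkers NID1 and NID2 (0.71 and 0.74), the large proteoglycan VCAN (0.71) and the collagen crosslinker LOXL1 (0.93) passed it as well. At 2-fold, PCOLCE, which enhances the cleavage of procollagen, was higher, with 321.7, 314.7 and 402.5 against 887.4, 892.6 and 903.4 (log2 difference 1.38 ± 0.090 SE, adjusted p = 8.58e-08). The fibrillar collagen chain COL5A2 was lower, with 215.7, 237.0 and 177.8 against 55.2, 69.8 and 38.9 (log2 difference -1.96 ± 0.19 SE, adjusted p = 2e-06), as were the matrix glycoproteins FBLN2 (-2.27) and TNXB (-2.24). None of these 4 had overlapping groups, as for 57.1% of all genes tested. At the smaller threshold 4.13% of all genes were higher and 3.28% lower, and at 2-fold 0.607% and 1.23%. Without PMA control 3, LOXL1 was called at 2-fold as well (log2 1.005), which makes 2 higher genes of collagen processing in place of 1.

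By list, 0 of 29 collagen chains were higher and 1 lower at 2-fold, with a median log2 difference of 0.03 against 0 over all genes tested. Of 15 laminin and basement membrane genes 0 were called at 2-fold (median 0.17). Of 32 matrix glycoproteins 0 were higher and 2 lower (median 0.24), although 6 were higher at the smaller threshold. Of 15 proteoglycans 0 were called at 2-fold and 5 were higher at the smaller threshold (median 0.37), namely SDC1, VCAN, CSPG4, HAPLN3 and BGN. These medians stayed above 0 under every other scaling tried. COL3A1, a fibrillar collagen chain of connective tissue, was listed in the PMA table only, at 273.8, 193.2 and 195.9.

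MMP14 was the dominant metalloproteinase transcript of the untreated cells. Its mean level of 32418 per kilobase exceeded that of MMP2 (5378), of every other matrix metalloproteinase (all at 378.9 or less) and of the inhibitors TIMP2 (6210), TIMP1 (5694) and TIMP3 (1190). TIMP2, TIMP1 and MMP2 lay close together. The membrane-type enzyme MMP17 had 378.9 per kilobase, the interstitial collagenase MMP1 292.2, the gelatinase MMP9 195.1 and the membrane-type enzyme MMP16 118.1. Members with a mean under 10 normalized counts were MMP8, MMP10 and MMP12, which were not tested.

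MMP14 had 96803, 94303 and 101044 normalized counts in the PMA controls and 140359, 148256 and 145140 in the ConA controls. The groups were far apart relative to their spread, and the difference of 1.48-fold (log2 0.57 ± 0.061 SE, adjusted p = 5.93e-06) passed the smaller threshold. MMP2 had 16410, 16600 and 18798 against 22916, 22577 and 23410 (log2 difference 0.41 ± 0.060 SE, adjusted p = 7.68e-05), below both thresholds on size. MMP1 was lower in the ConA controls, with 845.5, 880.0 and 758.3 against 343.0, 319.6 and 307.7 (2.55-fold, log2 -1.35 ± 0.080 SE, adjusted p = 2.96e-08). The stromelysin MMP3 (48.9, 41.1 and 63.2 against 17.5, 10.6 and 12.4) and MMP25 (117.6, 83.6 and 82.0 against 23.0, 42.5 and 32.8) were called lower as well. MMP9 was called higher, with 310.7, 298.7 and 286.2 against 588.4, 629.6 and 620.6 (2.05-fold, log2 1.04 ± 0.075 SE, adjusted p = 2.04e-07). It lay at the 2-fold edge, and its log2 difference was 0.999 when libraries were scaled to equal totals. The call on MMP3 did not hold without any of 5 of the libraries, and that on MMP25 without any of 4. Their adjusted p reached 0.00057 and 0.000784, both without ConA control 6. Under quantile scaling neither was called (adjusted p = 0.00027 and 0.000314). Of 13 metalloproteinases tested, 1 was thus higher and 3 lower at 2-fold (median log2 difference 0.34), and 1 and 2 without PMA control 2 or without PMA control 3. The shares over all genes tested were 0.607% higher and 1.23% lower.

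Among the inhibitors, TIMP2 had 20627, 19306 and 21998 in the PMA controls and 25626, 23739 and 24772 in the ConA controls. TIMP1 had 6519, 6789 and 6833 against 5660, 5861 and 5746, so these inhibitors moved in opposite directions by small amounts that were not called (log2 0.26 and -0.22). Both amounts are near the shift of 0.18 on the log2 scale between the tables, and their size depends on it. TIMP3, which binds to the matrix, was higher at the smaller threshold, with 3946, 3716 and 4564 against 7214, 6726 and 6689 (log2 difference 0.76 ± 0.070 SE, adjusted p = 1.65e-06). None of the 4 inhibitors tested was called at 2-fold. The groups did not overlap for any of them, which was also the case for 57.1% of all genes tested.

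Of the genes of plasminogen activation, ANXA2 and PLAU were closest to MMP14 in level, while the list median was 4097 per kilobase. The plasminogen receptor annexin ANXA2 had 29752 per kilobase, urokinase (PLAU) 27362, the tissue activator PLAT 13291 and the urokinase receptor PLAUR 4097. PLAU had 64179, 65521 and 65157 normalized counts against 77821, 82675 and 81012. It was not called (log2 0.31), though the groups did not overlap. SERPINB2, an inhibitor of urokinase, was 7.08-fold lower in the ConA controls, with 399.2, 445.4 and 431.5 against 58.9, 63.6 and 55.7 (log2 difference -2.82 ± 0.11 SE, adjusted p = 7.02e-10). SERPINB2 was the only gene of 11 called at 2-fold. At the smaller threshold 2 were higher and 1 lower, against 4.13% and 3.28% of all genes tested. ANXA2, at the edge of that threshold, was among the higher ones (log2 0.5, adjusted p = 2.81e-05). The median log2 difference of the list was -0.003, which is positive on the values as deposited.

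ADAM9 (4067 per kilobase) and ADAM19 (1960) led the ADAM family, and of 22 genes tested 0 were higher and 1, ADAM8, known from leukocytes, was lower at 2-fold. Its call did not hold without ConA control 4 (adjusted p = 0.000123). ADAM19 was higher at the smaller threshold, with 9519, 9152 and 10210 against 16075, 15362 and 15903 (log2 0.71 ± 0.055 SE, adjusted p = 3.32e-07). Lysosomal cathepsins were led by CTSB (8153 per kilobase), CTSD (6975) and CTSZ (6427), and CTSB did not separate the groups (31846, 31431 and 30688 against 31411, 31891 and 32282). Of 17 cathepsins and cystatins, 2 were lower at 2-fold, against 1.23% of all genes tested. These were CTSC and CTSW, proteases that process granzymes or mark cytotoxic lymphocytes. CTSC had 142.9, 180.6 and 117.4 against 6.44, 8.83 and 7.07, and CTSW 88.5, 101.9 and 89.4 against 2.76, 3.53 and 7.96. Both moved with the T and NK cell genes described above, whose part was not tested.

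Integrins were led by the subunits that bind fibronectin, laminin and collagen. ITGB1, the common beta chain, had 14093 per kilobase, ITGA3 13176, ITGB5 5645, ITGA2 5632 and ITGA5 3936. ITGB1 had 52503, 52072 and 50982 normalized counts against 57220, 53902 and 53278, and ITGA3 65503, 64453 and 70361 against 60640, 60085 and 65385. Neither was called (log2 0.08 and -0.11). The collagen receptor subunit ITGA2 had 51339, 50872 and 50069 against 41009, 33506 and 39098, a log2 difference of -0.43 that was not called. At 2-fold, 3 of 22 integrins tested were lower and 0 higher, namely the leukocyte subunits ITGB2 (646.9, 604.3 and 486.2 against 259.9, 274.4 and 272.3), ITGB7 (97.7, 82.0 and 108.7 against 0.924, 3.54 and 7.98) and ITGAM (38.7, 39.3 and 27.1 against 0.92, 2.65 and 6.19). The call on ITGAM did not hold without any of 5 of the libraries (adjusted p up to 0.000514, without PMA control 1), and 2 integrins were lower without PMA control 2 or without PMA control 3. The median over the 22 subunits was 0.11, and 1.23% of all genes tested were lower at 2-fold.

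Other adhesion genes were close between the groups. The hyaluronan receptor CD44 had 8441 per kilobase, the tetraspanins CD63 and CD151 14024 and 13003, and the cell adhesion molecule MCAM 4664. CD44 had 52106, 49900 and 54565 against 46898, 42798 and 44022, which was not called (log2 -0.23). MCAM, with 12911, 12559 and 12768 against 18156, 18121 and 18189, was higher at the smaller threshold (log2 0.51 ± 0.049 SE, adjusted p = 2.2e-06). Of 26 members of the immunoglobulin-like list, 0 were higher and 1 lower at 2-fold. That gene, the leukocyte ligand VCAM1, had 39.6, 38.5 and 19.0 in the PMA controls and was listed at 0 in all ConA controls, so no fold is given, and its call did not hold without PMA control 1 or PMA control 2 (adjusted p = 0.000243 and 0.000177). ICAM1, a ligand of ITGB2-containing integrins, was lower at the smaller threshold (684.1, 596.5 and 645.4 against 378.9, 392.0 and 381.0). Among 15 cadherins and catenins 0 were called at 2-fold. N-cadherin (CDH2) had 5186, 4980 and 5418 against 4342, 4060 and 4168. Of 31 focal adhesion proteins 0 were higher and 1 lower, FERMT3, the kindlin of blood cells (79.3, 74.2 and 69.5 against 19.3, 21.2 and 7.07, adjusted p = 0.00037 without ConA control 4 and 0.000136 without PMA control 2, so that 0 were then called). The most abundant members, ACTN4 (9958 per kilobase), FLNA (9417) and ACTN1 (5874), had overlapping groups.

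**Figure D3:**
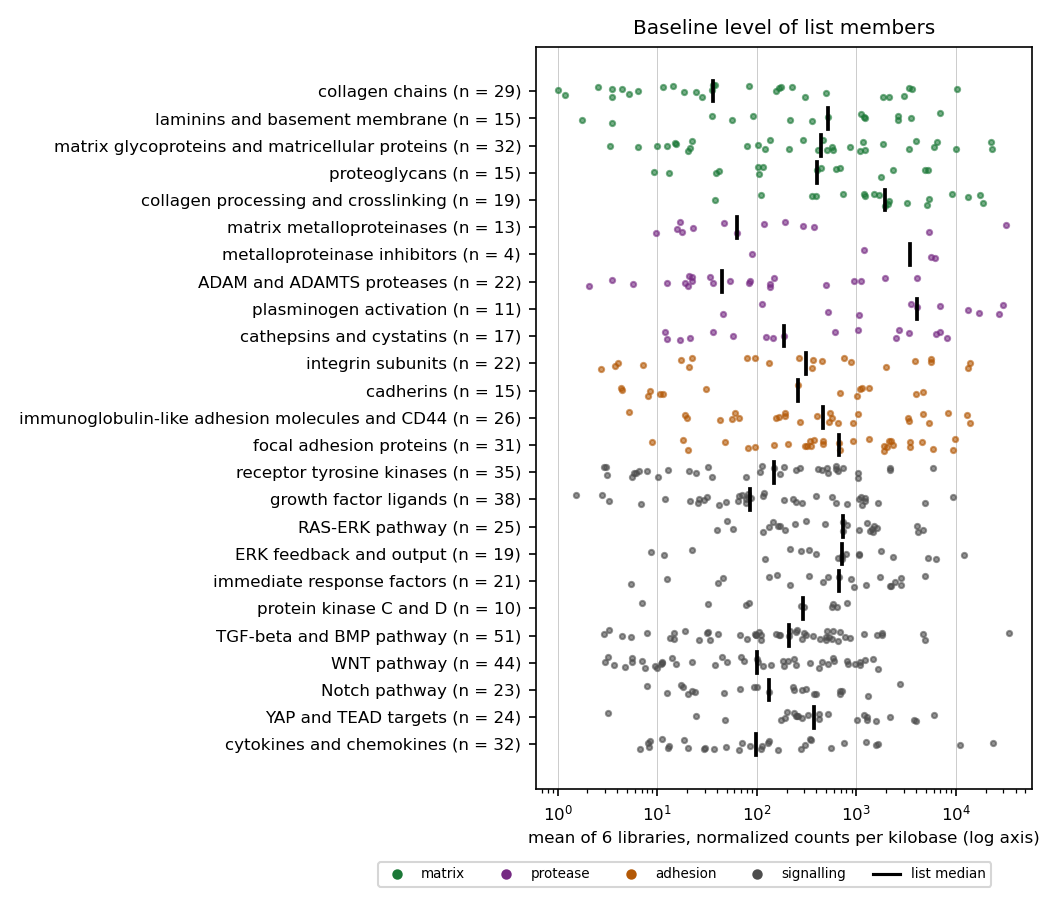
Mean level of each tested list member over 6 libraries in normalized counts per kilobase (log axis), with 1 point per gene, colours for matrix, protease, adhesion and signalling lists, and a black bar at each list's median. Plasminogen activation and metalloproteinase inhibitors have the highest medians (4097 and 3442), collagen chains the lowest (36.2), and MMP14 is the far point of the metalloproteinases at 32418.

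Signalling genes at baseline were led by GDF15, a stress-induced member of the TGF-beta family, with 34754 per kilobase, and the cytokine MIF with 23861. Of the feedback and output genes of the RAS-ERK cascade, IER3, an early survival factor, had 12005 per kilobase, cyclin D1 (CCND1) 6409, PHLDA1 5273 and the ERK phosphatase DUSP4 2334. EPHA2 was the most abundant receptor tyrosine kinase with 5927 per kilobase, ahead of AXL (2206), the collagen receptor DDR1 (2195), RYK (1057) and the hepatocyte growth factor receptor MET (1042). Of ligands, VEGFA had 9460 and the AXL ligand GAS6 4972. Among cytokines IL1B had 11013.

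Few genes of the kinase pathways were called. Of 35 receptor tyrosine kinases 0 were called at 2-fold, and at the smaller threshold 2 were higher and 3 lower (median log2 difference 0.05). EPHA2 had 22166, 21667 and 22865 against 23503, 24743 and 26031. Of 25 RAS-ERK pathway genes 0 were called at 2-fold, and of 19 ERK feedback genes 0. Of 10 genes of protein kinase C and D, a group that includes the kinases phorbol esters bind, 0 passed either threshold. PRKCA had 5799, 5648 and 6194 against 5671, 5010 and 5706, and PRKCD 2219, 2125 and 2091 against 2373, 2382 and 2485. PRKCQ, the isoform known from T cells, was at low counts and 3.00-fold apart, with 34.1, 38.5 and 33.4 against 9.2, 12.4 and 12.4 (log2 -1.58 ± 0.26 SE, adjusted p = 0.000234), and missed the limit on p. So did the receptor ROR2 (log2 -1.52, adjusted p = 0.00018) and the ERK feedback genes DUSP6 (-1.36, adjusted p = 0.000324) and SPRY1 (-1.10, adjusted p = 0.000471), all below 90 normalized counts in every library. These would pass at an adjusted p of at most 0.05. MYC was the ERK output gene that passed the smaller threshold, with 2228, 2126 and 2133 against 1144, 1308 and 1284 (log2 -0.80 ± 0.064 SE, adjusted p = 4.21e-07). The median of the feedback list, -0.14, is positive on the values as deposited.

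Transcription factors of the immediate response tended to lower values in the ConA controls. Of 21 tested, 0 were higher and 2 lower at 2-fold and 5 lower at the smaller threshold, against 1.23% and 3.28% of all genes lower. The median of -0.31 stayed below 0 under every scaling tried. FOS, the AP-1 subunit, had 134.6, 135.0 and 143.5 against 61.6, 54.7 and 59.2 (log2 -1.22 ± 0.13 SE, adjusted p = 4.86e-06). The nuclear receptor NR4A2 had 789.2, 793.2 and 855.8 against 298.0, 336.4 and 302.3 (log2 -1.38 ± 0.077 SE, adjusted p = 1.76e-08). FOSL1, the most abundant member at 4932 per kilobase, had 10043, 10010 and 10607 against 6150, 6248 and 6330 (log2 -0.71 ± 0.050 SE, adjusted p = 1.7e-07), and EGR1 575.3, 460.6 and 569.6 against 265.8, 286.1 and 337.7. JUND lay on the other side without a call, at 3287, 3583 and 4354 against 4870, 5944 and 5727.

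In the TGF-beta and BMP pathway, 51 genes were tested, with 1 higher and 2 lower at 2-fold. BMP4 had 126.3, 117.2 and 117.4 against 256.6, 321.4 and 272.3 (log2 1.22 ± 0.11 SE, adjusted p = 1.16e-06), and BMP6 448.4, 443.5 and 467.1 against 126.2, 172.6 and 176.6 (log2 -1.53 ± 0.12 SE, adjusted p = 3.31e-07). These 2 ligands thus lay on opposite sides. The other lower gene was the BMP target ID2, whose call did not hold without ConA control 4 (adjusted p = 0.000346) or without PMA control 2 (adjusted p = 0.000115), which left 1 lower. GDF15 was lower at the smaller threshold, with 53002, 52245 and 49903 against 28186, 33474 and 33422 (log2 -0.71 ± 0.069 SE, adjusted p = 2.57e-06). Of 44 WNT pathway genes, LGR4, a receptor for R-spondins, was higher (838.1, 802.2 and 889.2 against 1814, 1683 and 1818, log2 1.07 ± 0.064 SE, adjusted p = 3.28e-08). DKK1, a secreted WNT inhibitor at 33.2 or fewer normalized counts, was called lower, but the call was lost without any of 5 of the libraries (adjusted p up to 0.00054). Of 23 Notch pathway genes the target HEY1 was lower, with 224.0, 208.4 and 221.2 against 94.7, 84.8 and 108.7. Of 24 YAP and TEAD targets 0 were called at 2-fold (1 higher without PMA control 2), and of 38 growth factors ANGPT1 alone, whose call was lost without any of 5 of the libraries (log2 difference 0.948 to 1.12 in those fits).

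Cytokines and chemokines had the lowest median of the signalling lists, -0.45, and it stayed below 0 under every scaling tried. Of 32 tested, 0 were higher and 8 lower at 2-fold, against 1.23% of all genes lower. CCL5, a chemokine made by T cells and by stimulated fibroblasts, had 796.6, 626.0 and 585.9 in the PMA controls and 85.5, 95.4 and 93.7 in the ConA controls (log2 -2.85 ± 0.11 SE, adjusted p = 1.11e-09). The neutrophil chemokine CXCL8 had 735.8, 708.3 and 719.5 against 339.3, 305.5 and 298.8 (adjusted p = 6.13e-08), and CXCL3 177.9, 180.6 and 164.3 against 65.3, 68.0 and 68.1. IL32 had 1307, 1399 and 1146 against 590.4, 649.9 and 667.5, and IL24 384.7, 354.4 and 278.5 against 144.9, 150.9 and 118.6. The groups did not overlap for any of these, as for 57.1% of all genes tested. LTB and CCL3, which are lymphocyte or myeloid products, and TNFSF15 made up the 8, and the call on CCL3 did not hold without ConA control 6 (adjusted p = 0.000119). The count was 6 without PMA control 2, where 1 was higher, and 7 without PMA control 3. Not all cytokines were lower: the monocyte chemokine CCL2 had 173.3, 188.7 and 167.9 against 371.5, 327.6 and 335.9, higher at the smaller threshold (log2 0.96). The T and NK cell genes moved the same way as LTB, CCL3 and CCL5, and their part was not tested.

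Genes of the hypoxia response were lower in the ConA controls. Hypoxia-inducible factors bind short ACGTG elements and raise genes for oxygen-sparing metabolism, pH control and mitophagy, and both experiments were described with the same culture. Of 24 list members tested, 0 were higher and 4 lower at 2-fold, and 9 were lower at the smaller threshold. Among all genes tested, 1.23% were lower at 2-fold and 3.28% at the smaller threshold. Of the 24, 21 had a negative difference, against 7492 of all 14984 genes tested. The median of -0.41 stayed below 0 under every scaling tried. Promoter sequences of 3 of the 4 called genes are shown to place that element. The promoter set used held no entry for NDRG1, so every called gene with an entry is shown. Sequences are from RefSeq on GRCh38.p14, from 250 bases before to 50 bases after the transcription start. They are written 5′ to 3′ along the gene with ACGTG matches on either strand in capitals. CA9 lies at chr9:35673678-35673977 (plus strand), BNIP3 at chr10:131981874-131982173 (minus strand) and PPFIA4 at chr1:203026241-203026540 (plus strand).
CA9: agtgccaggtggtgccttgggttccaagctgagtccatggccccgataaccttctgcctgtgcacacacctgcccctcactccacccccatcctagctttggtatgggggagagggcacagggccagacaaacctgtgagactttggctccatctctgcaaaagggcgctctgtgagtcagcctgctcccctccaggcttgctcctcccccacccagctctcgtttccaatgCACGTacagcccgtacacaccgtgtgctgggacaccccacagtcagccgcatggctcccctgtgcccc
BNIP3: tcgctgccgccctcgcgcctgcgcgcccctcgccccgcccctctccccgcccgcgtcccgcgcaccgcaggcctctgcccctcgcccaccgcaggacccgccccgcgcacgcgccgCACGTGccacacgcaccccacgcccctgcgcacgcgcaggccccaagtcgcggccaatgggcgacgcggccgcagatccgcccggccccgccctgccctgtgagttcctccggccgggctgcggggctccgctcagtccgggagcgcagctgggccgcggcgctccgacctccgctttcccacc
PPFIA4: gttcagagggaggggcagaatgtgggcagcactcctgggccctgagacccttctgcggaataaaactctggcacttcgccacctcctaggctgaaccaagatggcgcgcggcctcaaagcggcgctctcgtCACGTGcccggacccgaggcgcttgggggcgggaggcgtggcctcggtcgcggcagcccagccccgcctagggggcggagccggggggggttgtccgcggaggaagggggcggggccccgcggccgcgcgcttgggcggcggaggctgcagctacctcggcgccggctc
The CA9 promoter holds 1 match, 18 bases before the start, and BNIP3 and PPFIA4 each hold 2 that overlap as the palindrome CACGTG. The letters ACGTG, on either strand, occur in 5900 of 27305 promoters of this length (21.6%) and in 10 of the 18 hypoxia list genes with a promoter in the table (55.6%). A match is a description of the sequence and no evidence of binding.

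CA9, a cell-surface carbonic anhydrase, had 1529, 1677 and 1802 normalized counts in the PMA controls and 639.2, 709.9 and 665.7 in the ConA controls (2.48-fold lower, log2 -1.31 ± 0.072 SE, adjusted p = 1.64e-08). BNIP3, a mitophagy receptor, had 7171, 8410 and 7886 against 3027, 3138 and 2805 (2.61-fold lower, log2 -1.39 ± 0.065 SE, adjusted p = 4.64e-09). NDRG1, a stress-response gene, had 34818, 37609 and 38050 against 13628, 14325 and 14725 (2.59-fold lower, log2 -1.37 ± 0.057 SE, adjusted p = 1.29e-09). In these genes every ConA control lay under every PMA control by a wide margin. PPFIA4, a liprin scaffold, had 389.1, 471.3 and 423.4 against 208.8, 192.5 and 206.0, and its log2 difference of -1.07 came to -0.995 without PMA control 2, just inside 2-fold, so that 3 genes were then lower. STC1 (-0.83), MXI1 (-0.72), BNIP3L (-0.69), KDM3A (-0.59) and PDK1 (-0.55) passed the smaller threshold. Classic targets with high levels moved little: VEGFA had 33826, 35258 and 36742 against 30342, 30820 and 33661, and the glucose transporter SLC2A1 20705, 21282 and 21882 against 18330, 19315 and 19415. Among 23 glycolysis genes 0 were called at 2-fold, while ENO2 (-0.99), HK2 (-0.73) and PGK1 (-0.51) were lower at the smaller threshold. The list median of -0.16 is positive on the values as deposited.

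Cholesterol synthesis genes were higher in the ConA controls. Sterol-responsive genes are induced together when cells lack sterols, for example in medium with little serum, which both groups received. Of 25 tested, 3 were higher and 0 lower at 2-fold, 11 were higher at the smaller threshold, and 22 had a positive difference. The shares over all genes were 0.607% higher at 2-fold and 4.13% at the smaller threshold, and 7492 of 14984 had a positive difference. The median of 0.44 was the highest of the lists drawn by difference, and it was 0.405 to 0.624 under the other scalings. ACAT2, which condenses acetyl-CoA, had 5863, 5744 and 5440 normalized counts in the PMA controls and 15027, 15104 and 14284 in the ConA controls (2.61-fold, log2 1.38 ± 0.053 SE, adjusted p = 7.02e-10). The isomerase EBP had 2218, 2368 and 2095 against 5180, 5628 and 4974 (2.36-fold, log2 1.24 ± 0.063 SE, adjusted p = 8.7e-09). The farnesyl diphosphate synthase FDPS had 12300, 12235 and 11113 against 23041, 24670 and 23590, a difference of 2.00-fold that lay at the threshold and was 0.951 on the log2 scale without PMA control 3, where 2 genes were higher. HMGCS1 (0.84), MVD (0.90) and INSIG1 (0.76) passed the smaller threshold.

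Interferon response, cell division and respiratory chain genes showed small differences in 1 direction. Over all genes tested, 7492 of 14984 had a positive difference, and 4.13% were higher at the smaller threshold and 0.607% at 2-fold. Of 59 interferon response genes 51 had a positive difference (median 0.24), with 7 higher at the smaller threshold and 1 at 2-fold, the immunoproteasome subunit PSMB9 (1118, 1016 and 906.3 against 1952, 2416 and 2300, log2 1.13 ± 0.087 SE, adjusted p = 3.31e-07). Its partner PSMB8 (0.85) and the GTPase GBP1 (0.93) were close behind. Of 48 DNA replication and mitosis genes 44 were positive (median 0.31), 7 passed the smaller threshold and 0 passed 2-fold. The mitotic cyclin CCNB1 had 3014, 3042 and 2722 against 4766, 5034 and 4803, the replication factor GINS2 331.9, 327.3 and 322.3 against 586.7, 572.2 and 542.8, and the proliferation marker MKI67 4856, 4759 and 4954 against 5409, 3848 and 5276, whose groups overlapped. Of 67 nuclear-encoded respiratory chain subunits 62 were positive (median 0.32), with 6 higher at the smaller threshold, among them NDUFS5 (0.73) and CYC1 (0.71). PMA control 3 had the lowest value of the 6 libraries for NDUFS5, CYC1, NDUFS6 and NDUFB2. These 3 medians stayed above 0 under every scaling tried. Cytoplasmic ribosomal proteins, 79 genes, had 0 called at 2-fold and 2 higher at the smaller threshold. No mitochondrially encoded gene was listed in either table.

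**Figure D4:**
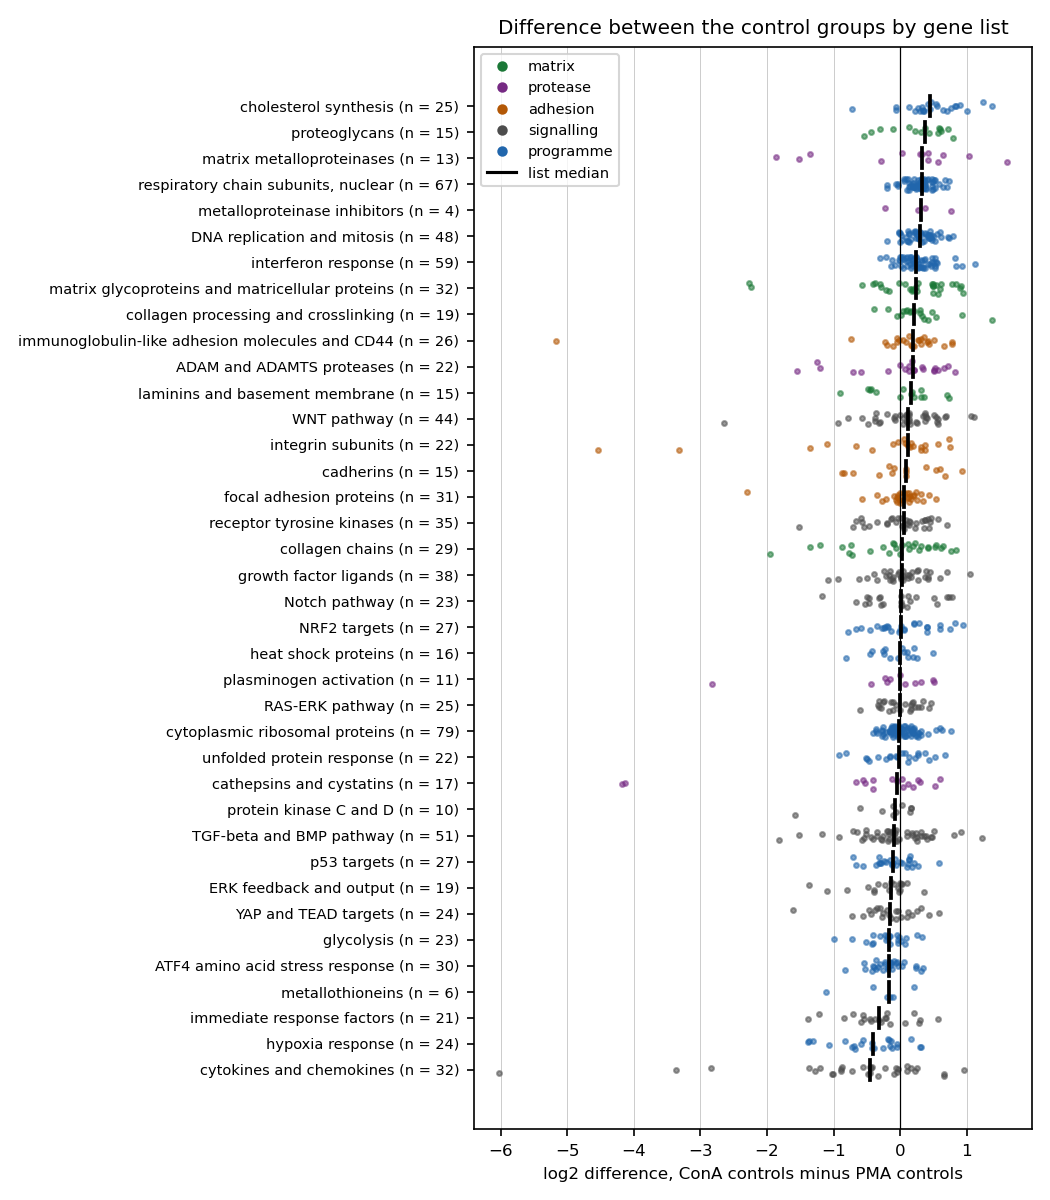
Log2 difference between the control groups (horizontal axis, ConA controls minus PMA controls) for each tested member of each gene list, ordered by list median (black bar), with colours for matrix, protease, adhesion, signalling and other programmes. Cholesterol synthesis stands at the top with a median of 0.44 and cytokines and chemokines at the bottom with -0.45, and the other lists lie between them, some with medians whose sign changes with the scaling.

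The largest differences towards higher values in the ConA controls were of modest size. Of the 15 genes with the largest positive log2 difference, lysozyme (LYZ) came first, with 5.53, 11.6 and 15.3 normalized counts against 81.8, 96.2 and 69.0 (7.47-fold). Its level was low, and the call did not hold without ConA control 4 or without ConA control 6 (adjusted p = 0.000221 and 0.000103). The extracellular matrix protein OLFML2B had 137.4, 124.3 and 100.2 against 550.9, 513.0 and 548.1 (4.46-fold, log2 2.16 ± 0.11 SE, adjusted p = 9.08e-09). PRSS35, a serine protease-like protein, had 162.3, 133.2 and 158.9 against 639.2, 594.2 and 582.6 (3.99-fold, adjusted p = 4.82e-09), and the leucine-rich matrix protein PODNL1 140.1, 117.2 and 170.6 against 454.3, 536.0 and 567.6 (3.65-fold). PIK3R3, a regulatory subunit of PI 3-kinase, had 510.8, 547.3 and 657.1 against 2177, 1899 and 1788 (3.42-fold, adjusted p = 1.05e-08). The cancer-testis antigen CTAG1B had 675.4, 659.6 and 466.9 against 1675, 2942 and 2378, and the small RNA BCYRN1 1840, 1719 and 1448 against 6114, 6401 and 5897. Both have near-identical copies in the genome, so reads may be shared. SEPTIN4, CNIH2, RANBP3L and SLCO4C1 were the others whose calls held in every alternative with the variance trend. SERPINF1, PLCD4, ANKRD35 and HYAL1 lost theirs when a library was left out (adjusted p up to 0.000245, 0.000119, 0.00115 and 0.00034).

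The largest differences towards lower values were larger, and most of these genes are known from lymphocytes. LTB, which encodes lymphotoxin beta, had 143.8, 211.9 and 348.5 against 0.92, 5.3 and 2.65 (log2 -6.02 ± 0.40 SE, adjusted p = 1.02e-07). The cytotoxic granule protease GZMA had 254.5, 186.0 and 232.0 against 11.04, 7.95 and 11.5 (20.4-fold lower, log2 -4.35 ± 0.20 SE, adjusted p = 3.01e-09). The chemokine receptor CXCR4 had 122.6, 147.6 and 144.4 against 6.44, 5.3 and 7.07 (19.5-fold), the cytokine receptor chain IL2RG 155.8, 141.3 and 137.2 against 13.8, 7.06 and 7.07 (14.9-fold), and the T cell kinase LCK 155.8, 122.5 and 126.4 against 11.04, 18.5 and 6.19 (11.5-fold). The tetraspanin CD53 had 122.6, 114.5 and 109.2 against 6.44, 4.42 and 2.65. IL10RA, GIMAP4 and RCSD1 had at most 3 normalized counts in any ConA control, so no fold is given, and they had 103.3, 87.6 and 89.4, then 55.3, 65.3 and 43.3, and then 64.5, 66.2 and 46.9 in the PMA controls. ITGB7, CTSW, CTSC, DPP4 and RASGRP1 completed the lymphocyte-related genes. CLDN11, a tight-junction claudin, had 166.0, 105.5 and 71.3 against 7.36, 7.95 and 4.42. Within the PMA controls these genes ranged by less than 3-fold, and separation of the groups was part of the rule that chose them.

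**Figure D5:**
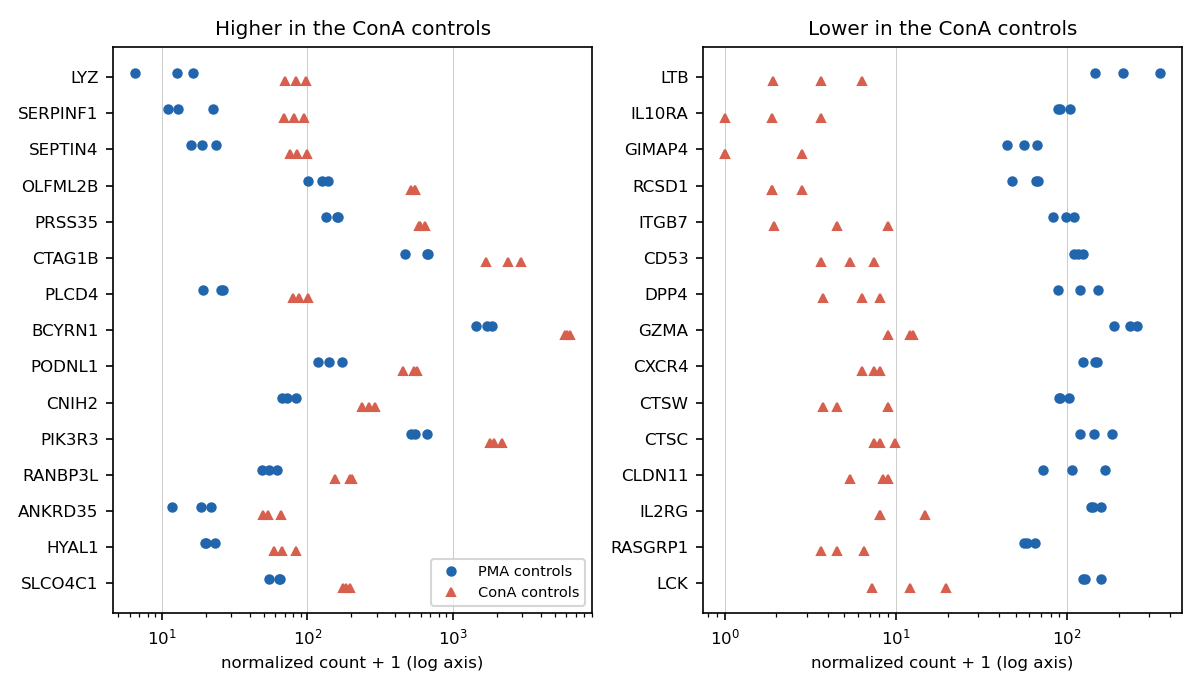
Normalized counts plus 1 (log axes) of the 15 genes with the largest positive and the 15 with the largest negative difference among called genes with a mean of at least 50 in the higher group, with circles for PMA controls and triangles for ConA controls. On the left the groups lie 3.03-fold to 7.47-fold apart; on the right the gap is 11.5-fold or more and the ConA controls lie near the bottom of the scale.

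Large differences also occurred among genes beyond these 15 and outside the T, NK and B cell lists, several of them abundant. The genes of this paragraph were chosen after their values were seen. The transferrin receptor TFRC, which imports iron, had 42424, 42808 and 42757 normalized counts in the PMA controls and 12001, 10459 and 11610 in the ConA controls (3.76-fold lower, log2 -1.91 ± 0.059 SE, adjusted p = 1.74e-10). The telomerase catalytic subunit TERT had 1253, 1262 and 1250 against 115.9, 139.5 and 175.9 (8.81-fold lower, log2 -3.14 ± 0.12 SE, adjusted p = 7.02e-10). The autophagy receptor SQSTM1 had 66941, 64628 and 64127 against 30173, 32670 and 31319 (2.08-fold lower). In each of these, the spread within a group was small beside the gap. The nuclear long noncoding RNAs NEAT1 (14833, 16564 and 14762 against 7317, 6880 and 7807) and MALAT1 (13458, 14914 and 21171 against 5147, 5974 and 5286) were lower too. Higher in the ConA controls at high level were PTMS, which encodes parathymosin (12605, 13160 and 15006 against 26940, 32359 and 29538), the phosphatase inhibitor PPP1R14B (3097, 3393 and 3098 against 8185, 9812 and 9551) and the acetyl-CoA synthetase ACSS2 (3462, 3235 and 3410 against 7774, 7546 and 7864), a sterol-responsive gene. The actin-binding protein TAGLN, a mesenchymal gene chosen by list, was higher as well, with 679.9, 682.5 and 599.4 against 1548, 1836 and 1576 (2.52-fold, log2 1.34 ± 0.078 SE, adjusted p = 2.94e-08). It was the only 1 of 15 mesenchymal genes tested that was called at 2-fold. At the smaller threshold 5 were higher and 2 lower, against 4.13% and 3.28% of all genes tested. The lower ones were ACTA2 (-0.54) and VIM (-0.68).

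The proteins named near TIMP2 in HT1080 cultures form the list closest to the question of the study. The list pools conditions. The paper reports MMP1 after PMA treatment only, and C3, EFEMP1 and STC1 as specific to spheroid cultures. The paper also found C3 in a search against bovine proteins. The values here are RNA of untreated cells grown in dishes, not protein. Of the 16 genes of this list 14 were tested, with 0 higher and 2 lower at 2-fold, against 1.23% of all genes lower. The median was 0.03, which is negative under some of the other scalings. Lower were MMP1, given above, and complement C3 (529.2, 566.1 and 455.9 against 203.2, 166.0 and 210.4, log2 -1.42 ± 0.11 SE, adjusted p = 3.09e-07). STC1, a secreted glycoprotein hormone, was lower at the smaller threshold, with 39435, 40939 and 39511 against 22772, 21970 and 22810 (log2 -0.83 ± 0.052 SE, adjusted p = 5.86e-08). The fibulin EFEMP1 had 18536, 18212 and 18003 against 20744, 20901 and 20286, the thrombospondin THBS1 8569, 7970 and 9964 against 10458, 10047 and 10885, and CCN1 15262, 15402 and 15361 against 12184, 12570 and 12773. None of these 3 was called, although none had overlapping groups, as for 57.1% of all genes tested. The list was taken from proteins that the study named for these cells, so it is not independent of the study.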

How the data were processed

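RNA-seq of polyA RNA from wild-type HT1080 cells was analysed for the 6 untreated libraries (2 control groups of 3). The deposited values are normalized counts per gene, treated here as a normalized signal: the authors divided read counts by a factor per library, separately in the table of each experiment. The submitters' processing notes name Partek, Bowtie2, STAR and DESeq2 and the builds hg19 and mm10, without versions or roles. Between 5 and 60, 80.2% to 81.4% of values became whole within 0.02 when multiplied by a factor per library, so whole reads were not recovered, no count test was run, and depths (40269666 to 43173576 reads) are estimates.

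ConA values were shifted by 0.18 on the log2 scale so that the median difference was 0. This removes any difference in the total that both tables share, and a level set across separately normalized tables depends on it. The 14984 genes whose mean reached 10 normalized counts across these libraries were compared as log2(value + 1) with limma 3.58.1 in R 4.3.3 (moderated test, variance trend, Benjamini-Hochberg adjustment over all tested genes), without covariates. A pseudocount of 1 understates folds of low genes. Calls required an adjusted p of at most 0.0001 and a log2 difference of at least 1, or 0.5 for the smaller threshold. Levels between genes were divided by the longest GENCODE release 29 basic transcript, known for 97.1% of tested genes. Tables were handled in Python 3.11.15 with numpy 2.4.6, pandas 2.3.3 and matplotlib 3.10.9, and the tests were checked on simulated data.

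Named genes were the 20 most abundant, the 15 called genes with the largest difference in each direction (groups not overlapping, mean of at least 50 in the higher group), the 5 highest and 5 most different members of each list, and all members of the metalloproteinase, inhibitor, protein kinase C and D, plasminogen, marker and TIMP2-proximal lists. Pseudogenes, antisense and read-through symbols were left out of the first 2 sets, and 16 sex-linked symbols throughout. Members and lists were chosen with earlier results of these data known. Strand handling is not given in the sources used here, so overlapping antisense genes cannot be separated. Alternatives changed the pseudocount, the minimum mean, the scaling, the variance model, the thresholds, transcript length and the libraries included. The values of some single genes are not reported here.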

Additional observations from a re-analysis of the deposited data

How the results depend on the processing

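The count of 276 called genes (91 higher, 185 lower) was within 1.5 times of the reported one under other pseudocounts, minimum means, quantile scaling, equal totals, recomputed size factors and removal of a length trend. On the values as deposited 209 genes were higher and 128 lower. limma without a variance trend called 0 genes (0 higher, 0 lower) at an adjusted p of at most 0.0001, where the smallest adjusted p was 0.000149 and 638 genes at least 2-fold apart had an unadjusted p under 0.05. With an adjusted p of at most 0.05 it called 605 (166 higher, 439 lower), an alternative chosen after seeing the data. With the trend, that limit gave 635 (172 higher, 463 lower), and a log2 difference of at least 0.5 gave 1111 (619 higher, 492 lower). Leaving out each library in turn gave 187 to 265 calls, with 71 to 104 higher and 113 to 161 lower. The lowest total and the 113 were both found without ConA control 4, and the cause was not tested. With 2 libraries left in a group, the spread is taken from all genes.

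Of 71 called genes among 432 named and tested, 49 kept the call under every alternative other than the missing variance trend, 22 lost it under at least 1, and 0 reversed. Medians of 21 of 49 lists changed sign under some alternative. Of the 20 most abundant genes, 10 were among the first 20 without division by length, and 19 with the order of either control group alone. No paired analysis was possible because the control groups are numbered 1 to 3 and 4 to 6 and share no replicate number. Low counts limit the genes near 10 normalized counts, where the median SD within a group was 0.238 to 0.260 on the log2 scale for means up to 100, against 0.059 to 0.069 above 1000.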

Other observations

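Stress programmes not described above had 0 genes called at 2-fold, but not all of them were close between the control groups. At a log2 difference of at least 0.5, 4.13% of all genes tested were higher and 3.28% lower. Of 30 genes of the ATF4 amino acid response 0 were called at 2-fold, and 3 were lower in the ConA controls at a log2 difference of at least 0.5: the death-related factor DDIT3 (2760, 2803 and 2401 normalized counts against 1458, 1476 and 1518), asparagine synthetase ASNS (6618, 6567 and 6345 against 4509, 4679 and 4340) and the amino acid transporter SLC38A2. Of the 30, 24 had a negative difference, against 7492 of all 14984 genes tested. The list median of -0.17 is positive on the values as deposited. Of 22 unfolded protein response genes 2 were higher (the calcium-binding chaperone CALR and CRELD2) and 3 lower at that threshold. The chaperone HSPA5 was among the lower ones, with 71406, 69693 and 67552 against 49171, 49652 and 48631. CALR had 46064, 45429 and 44740 against 63901, 67841 and 63963, so the 2 chaperones lay on opposite sides. Of 27 NRF2 targets 3 were higher and 3 lower, with the quinone reductase NQO1 (3867, 3717 and 3600 against 7087, 7518 and 6899) on the higher side and haem oxygenase HMOX1 (2075, 2015 and 1985 against 1087, 1222 and 1240) and the ferritin chain FTH1 (68214, 68064 and 69066 against 41898, 44757 and 43636) on the lower. Summed, the NRF2 targets took 0.722% of the normalized counts of the PMA controls and 0.599% of those of the ConA controls. Of 27 p53 targets 1 was higher and 3 lower, and CDKN1A had 27225, 27073 and 27090 against 28399, 31361 and 29599. Of 16 heat shock proteins and 6 metallothioneins 0 passed either threshold.

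Genes listed in only 1 table numbered 641 in the PMA table and 532 in the ConA table, and they were at low levels, with a median over genes of 8.79 and 5.08 normalized counts. The surface glycoprotein THY1 of fibroblasts and T cells (133.7, 115.4 and 101.1) and the natriuretic peptide NPPB (93.1, 101.1 and 50.6) were listed in the PMA table only. The highest genes of the ConA table alone were TMEM238 (41.4, 45.9 and 41.6) and TMEM119 (29.4, 45.0 and 45.1), followed by genes known from gut epithelium such as TSPAN8 (31.3, 25.6 and 21.2) and LGALS4 (18.4, 24.7 and 17.7). A B cell lectin, CD22, was called lower in the ConA controls, with 483.1, 381.9 and 380.9 against 175.7, 194.3 and 228.1, and so was the melanocyte enzyme DCT (140.1, 140.4 and 126.4 against 69.9, 59.2 and 55.7). The call on CD22 did not hold without ConA control 4 (adjusted p = 0.000189) or without PMA control 1 (log2 -0.94), nor that on DCT without ConA control 6 (adjusted p = 0.000208) or without PMA control 1 (adjusted p = 0.000114). CD22 also fell short on the values as deposited (log2 -0.88, under 2-fold). Of 10 epithelial genes tested, 1 was called lower, the keratin KRT19. That call was lost without any of 4 of the libraries, PMA control 2 among them (adjusted p = 0.000506), so that 0 were then called. Of 2 kidney genes tested 0 were called, but PAX8 was called lower without PMA control 3 (log2 -1.19, adjusted p = 8.72e-05). The cause of these differences was not tested.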
